A study of Mus musculus with 24 samples.

Results

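The regions described here are stretches of H3K27ac at the ends of genes that were found at one oxygen level and not at the other in N1E115 cells, a mouse neuroblastoma line carrying neuronal nitric oxide synthase (NOS1+). Peaks on chromosomes 1 to 19 of the 4 deposited H3K27ac lists were merged where they overlapped or touched, which gave 96086 regions. Of these, 31526 lay within 2500 bp of either end of a RefSeq protein-coding or lncRNA gene and are called gene-end regions. A gene-end region with a peak in both 4% oxygen libraries and in neither 20% library is called 4%-only. A region with a peak in both 20% libraries and in neither 4% library is called 20%-only. There were 697 regions that were 4%-only, 2.21% of all gene-end regions, and 363 that were 20%-only, 1.15%, so 1060 in all. With the same number of top-scoring peaks taken from each list the counts were 676 and 345. With 20% replicate 1 left out they were 1399 and 2871, the other way round. A 20%-only region then needed a peak in a single 20% library, but a 4%-only region still needed one in both 4% libraries. The counts without that library are therefore not on the same rule and cannot show whether the order depends on it. The regions were chosen by the presence of H3K27ac peaks, so every H3K27ac value below is a description without a test.

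Chromatin immunoprecipitation followed by sequencing was done after 3 days of culture at 4% or 20% oxygen, in both cases with the same NOS1+ cells of this 1 line. H3K27ac, H3K4me3, H3K4me1, H3K36me3 and H3K27me3 each had 2 libraries per oxygen level, called replicates 1 and 2, and nothing in the labels says whether these came from separate cultures. P-values over libraries therefore measure the spread between libraries, which may be technical. The H3K27ac lists held 60786 and 94286 peaks at 4% oxygen and 69131 and 85201 at 20% oxygen, and their read depth is unknown. Per the file headers, the replicate 2 libraries shared a flow cell, while in replicate 1 the 4% and 20% libraries of every mark but H3K4me1 were on different flow cells, so that oxygen and flow cell cannot be told apart there. In such bulk libraries, fewer cells carrying a mark and less of the mark per cell cannot be told apart either. Any H3K27ac region was found at an end of 22 of 26 noradrenergic neuroblastoma genes on chromosomes 1 to 19, against 4 of 13 glial, 4 of 14 immune, 4 of 13 endothelial and 4 of 16 liver and muscle marker genes.

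H3K27ac is an acetylation of lysine 27 of histone H3 that is laid down by the coactivators p300 and CBP on nucleosomes flanking active promoters and enhancers. When oxygen falls, the prolyl hydroxylases that mark hypoxia-inducible factor (HIF) alpha subunits for destruction slow down. The stabilised factors bind short sites near genes of glycolysis, vessel growth and oxygen sensing and recruit such coactivators. The core letters bound by HIF are ACGTG or GCGTG. ETS factors, another large family of DNA-binding proteins common at promoters of housekeeping genes, bind around the letters CCGGAAG.

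Promoters of members near the top of each direction are shown first, because the directions differed in where the regions lay around the promoter and in the letters the promoters held. Each is the RefSeq window of 300 bp that runs from 250 bp before the annotated start to 50 bp after it, in build GRCm38.p6, printed 5′ to 3′ on the gene's strand. Capitals mark ACGTG or CCGGAAG on either strand, so that CACGT and CTTCCGG are the reverse complements. The first 3 belong to genes with a 4%-only region that overlapped the window.
Pdk1, chr2:71872974-71873273, plus strand: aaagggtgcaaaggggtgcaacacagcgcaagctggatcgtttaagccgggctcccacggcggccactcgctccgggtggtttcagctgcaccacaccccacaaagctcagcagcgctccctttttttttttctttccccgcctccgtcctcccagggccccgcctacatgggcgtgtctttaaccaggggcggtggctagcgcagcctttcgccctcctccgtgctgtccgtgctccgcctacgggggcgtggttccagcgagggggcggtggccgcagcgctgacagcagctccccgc
Selenbp1, chr3:94932833-94933132, plus strand: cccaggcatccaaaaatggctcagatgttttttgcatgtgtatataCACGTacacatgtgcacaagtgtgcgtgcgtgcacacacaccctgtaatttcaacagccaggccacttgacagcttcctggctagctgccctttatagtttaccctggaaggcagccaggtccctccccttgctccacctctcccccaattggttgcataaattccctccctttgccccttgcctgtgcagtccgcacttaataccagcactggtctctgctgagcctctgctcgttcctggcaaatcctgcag
Mgarp, chr3:51396498-51396797, minus strand: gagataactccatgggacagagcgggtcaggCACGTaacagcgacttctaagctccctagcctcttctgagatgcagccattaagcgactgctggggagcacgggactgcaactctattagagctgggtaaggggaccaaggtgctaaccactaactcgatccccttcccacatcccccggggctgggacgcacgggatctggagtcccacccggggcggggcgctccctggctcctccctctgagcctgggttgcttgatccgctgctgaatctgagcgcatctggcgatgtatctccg
The next 3 belong to genes with a 20%-only region that overlapped the window.
Thg1l, chr11:45955139-45955438, minus strand: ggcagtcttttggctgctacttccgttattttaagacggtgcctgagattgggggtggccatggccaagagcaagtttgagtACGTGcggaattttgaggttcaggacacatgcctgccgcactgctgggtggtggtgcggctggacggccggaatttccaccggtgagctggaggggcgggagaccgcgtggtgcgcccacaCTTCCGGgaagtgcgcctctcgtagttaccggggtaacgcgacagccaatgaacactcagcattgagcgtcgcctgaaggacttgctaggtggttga
Nhp2, chr11:51619523-51619822, plus strand: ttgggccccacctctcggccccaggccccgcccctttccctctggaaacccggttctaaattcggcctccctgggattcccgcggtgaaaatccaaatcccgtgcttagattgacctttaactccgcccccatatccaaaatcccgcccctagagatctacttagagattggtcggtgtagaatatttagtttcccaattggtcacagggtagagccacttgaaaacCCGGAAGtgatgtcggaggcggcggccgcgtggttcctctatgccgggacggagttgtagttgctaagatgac
Jagn1, chr6:113442319-113442618, plus strand: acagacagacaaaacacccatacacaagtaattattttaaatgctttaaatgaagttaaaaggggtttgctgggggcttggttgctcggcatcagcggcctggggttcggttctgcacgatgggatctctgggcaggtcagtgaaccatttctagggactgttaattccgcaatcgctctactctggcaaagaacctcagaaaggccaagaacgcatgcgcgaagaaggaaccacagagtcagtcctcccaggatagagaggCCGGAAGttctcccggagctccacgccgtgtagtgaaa
The Selenbp1 and Mgarp windows held ACGTG on the opposite strand, and the Pdk1 window held neither ACGTG nor CCGGAAG. The second HIF core, GCGTG, is not capitalised; on either strand it was at 2 places in the Pdk1 window, at 2 overlapping places in the Selenbp1 window, at 1 place each in the Thg1l, Nhp2 and Jagn1 windows, and at 0 in the Mgarp window. The Thg1l window held both, and the Nhp2 and Jagn1 windows held CCGGAAG only. The Thg1l window belongs to an annotated start inside the gene record, which runs to chr11:45955503. Its letters therefore lie within the gene and not upstream of it. Over all windows overlapped by members, CCGGAAG was in 15.5% at 4%-only and 38.5% at 20%-only regions. That contrast is smaller than in the windows shown, which were picked after their values were seen. The promoters of the rank 1 regions, at Agbl5 and Pibf1, are not shown.

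Among genes with a 4%-only region, members of the hypoxia response were the best represented of 15 gene lists. At the ends of 8 of 49 listed hypoxia genes there was a 4%-only region, and at 1 there was a 20%-only region. Over all 33073 annotated genes on these chromosomes, 2.6% had a 4%-only region and 1.38% a 20%-only region. Over the 16486 genes with any H3K27ac region at an end, which included 41 of the hypoxia genes, the percentages were 5.22% and 2.77%. The list was drawn up with earlier results of these data known, so that its count is no independent evidence of a direction.

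Adm encodes the vasodilator peptide adrenomedullin, an established HIF target. Its 4%-only region, 1039 bp wide, lay on chromosome 7 with its centre at -630 bp from the start (negative is upstream), at chr7:110626508-110627546. Within 2500 bp around that region, H3K27ac peaks covered 3346 and 2620 bp in the 4% libraries (replicates 1 and 2), against 239 and 234 bp in the 20% libraries. Both 4% libraries were far above both 20% libraries, and H3K4me3, which marks promoters, covered the whole Adm region in all 4 libraries.

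Pdk1 encodes a kinase that holds back pyruvate dehydrogenase and so keeps pyruvate out of the citric acid cycle. Its region, ranked 4 of 697 by peak score, had its centre at -589 bp from the start. H3K27ac peaks around it covered 2082 and 2809 bp in the 4% libraries, against 835 and 765 bp in the 20% libraries. The 20% libraries thus kept H3K27ac nearby, with the nearest peak 236 bp from the region.

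Hif3a encodes a HIF alpha subunit that can restrain the others, and its region was centred at +1776 bp from the start. H3K27ac around it covered 1659 and 1677 bp in the 4% libraries, against 0 and 268 bp in the 20% libraries. Vhl encodes the ubiquitin ligase subunit that recognises hydroxylated HIF alpha. Around its region, centred at -269 bp from the start, H3K27ac covered 1201 and 985 bp in the 4% libraries, against 582 and 697 bp in the 20% libraries. The libraries did not overlap at either gene, and the difference was smaller at Vhl.

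Narf encodes a prelamin-binding protein. H3K27ac around its region covered 1849 and 2053 bp in the 4% libraries, against 765 and 268 bp in the 20% libraries. Stc2 encodes a secreted glycoprotein, stanniocalcin 2. H3K27ac around its region covered 2372 and 2562 bp in the 4% libraries, against 919 and 1949 bp in the 20% libraries. At both genes the 4% libraries lay above the 20% libraries, with a wide gap between the 20% libraries at Stc2. The region assigned to Fam162a, a hypoxia-responsive mitochondrial protein gene, was centred at -3342 bp from its start and lay nearer to the end of its neighbour Ccdc58. H3K27ac there covered 3792 and 2730 bp in the 4% libraries, against 1527 and 1428 bp in the 20% libraries. The region of Ankrd37, an ankyrin repeat gene known as a HIF target, was centred at -3002 bp from the start, with 3158 and 2491 bp in the 4% libraries against 1703 and 1341 bp in the 20% libraries. The listed hypoxia gene with a 20%-only region was Kdm4b, a histone H3K9 demethylase gene, with 1750 and 2059 bp in the 4% libraries against 2507 and 2454 bp in the 20% libraries. The Kdm4b region lay 971 bp from an end of the gene. Its centre was at -16303 bp from the nearest RefSeq start, that of Gm32715, so it was not at a promoter of Kdm4b.

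Of 24 listed genes of glycolysis and glucose handling on these chromosomes, 2 had a 4%-only region and 0 a 20%-only region. Hk2 encodes the inducible hexokinase, and H3K27ac around its region covered 2548 and 3180 bp in the 4% libraries, against 1986 and 1647 bp in the 20% libraries. Pygl encodes liver glycogen phosphorylase, with 1393 and 1831 bp in the 4% libraries against 813 and 1036 bp in the 20% libraries. The Pygl region lay near the far end of the gene, centred at +34433 bp from the start. At all 10 regions of hypoxia and glycolysis genes both 4% libraries were above both 20% libraries. That was so at 586 of the 697 4%-only regions and at 23.4% of all gene-end regions; since the rule used these peaks, the share among members is a consequence of it.

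**Figure D1:**
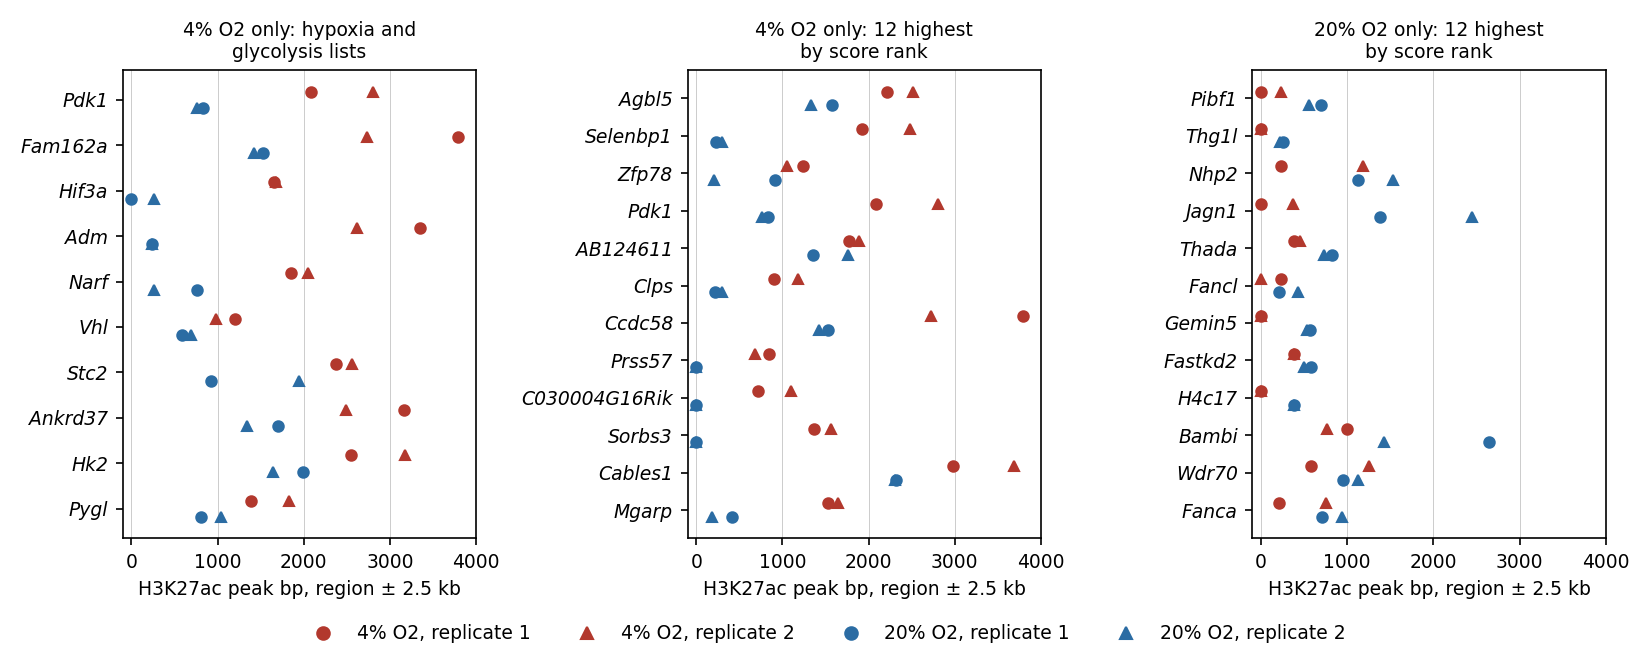
H3K27ac peak length (bp) within 2500 bp around each region, 1 point per library (circles replicate 1, triangles replicate 2; 4% oxygen above 20% oxygen in each row), for the 4%-only regions of hypoxia and glycolysis list genes and for the 12 regions of each direction with the highest score rank. The 4% libraries lie above the 20% libraries at all 10 list genes and all 12 ranked 4%-only regions, and below them at 8 of the 12 ranked 20%-only regions.

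The 12 4%-only regions with the highest score rank were nearest to Agbl5, Selenbp1, Zfp78, Pdk1, AB124611, Clps, Ccdc58, Prss57, C030004G16Rik, Sorbs3, Cables1 and Mgarp. Selenbp1 encodes a selenium-binding methanethiol oxidase. Around its region, which held the annotated gene end, H3K27ac covered 1921 and 2477 bp in the 4% libraries, against 231 and 296 bp in the 20% libraries. Mgarp encodes a mitochondrial protein involved in the movement of mitochondria under hypoxia, with 1528 and 1640 bp in the 4% libraries against 414 and 186 bp in the 20% libraries. At both, the 20% libraries kept only short peaks nearby. At Sorbs3, which encodes the adhesion adaptor vinexin, H3K27ac covered 1368 and 1569 bp in the 4% libraries, and 0 bp in both 20% libraries, whose nearest peak lay 11366 bp away. Prss57, a serine protease gene, and C030004G16Rik likewise had 0 bp in both 20% libraries. Agbl5, a tubulin deglutamylase gene, ranked 1 and yet had 2218 and 2513 bp in the 4% libraries against 1578 and 1333 bp in the 20% libraries, so a high rank did not require that H3K27ac be absent nearby. Of the others, the pancreatic colipase gene Clps had 902 and 1176 bp in the 4% libraries against 221 and 297 bp in the 20% libraries, and the zinc finger gene Zfp78 had 1234 and 1059 bp in the 4% libraries against 912 and 209 bp in the 20% libraries. At AB124611 the gap was narrow, with 1773 and 1889 bp in the 4% libraries against 1351 and 1763 bp in the 20% libraries.

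The 12 20%-only regions with the highest rank were nearest to Pibf1, Thg1l, Nhp2, Jagn1, Thada, Fancl, Gemin5, Fastkd2, H4c17, Bambi, Wdr70 and Fanca. Nhp2 encodes a core protein of small nucleolar ribonucleoproteins, Thg1l a transfer RNA guanylyltransferase, Gemin5 a subunit of the SMN complex, and Fanca and Fancl are Fanconi anaemia DNA repair genes. Around the Thg1l region H3K27ac covered 0 bp in both 4% libraries, against 255 and 217 bp in the 20% libraries. Around Gemin5 it covered 0 bp in both 4% libraries, against 563 and 530 bp in the 20% libraries, and around Jagn1, which encodes an endoplasmic reticulum protein, 0 and 374 bp in the 4% libraries, against 1379 and 2450 bp in the 20% libraries. H3K4me3 covered the whole of the Thg1l, Gemin5 and Jagn1 regions in all 4 libraries. At Nhp2 the libraries overlapped over the wider window, with 234 and 1189 bp in the 4% libraries against 1130 and 1535 bp in the 20% libraries. Pibf1 encodes a centrosomal and ciliary protein, and its region, ranked 1, had 0 and 229 bp in the 4% libraries against 698 and 560 bp in the 20% libraries. The replication-dependent histone gene H4c17 had 0 bp in both 4% libraries against 385 and 380 bp in the 20% libraries. Bambi, which encodes a pseudoreceptor that dampens TGF-beta signalling, had 992 and 765 bp in the 4% libraries against 2641 and 1432 bp in the 20% libraries. At both Fanconi genes the libraries overlapped, with 212 and 759 bp in the 4% libraries against 706 and 940 bp in the 20% libraries at Fanca, and 235 and 0 bp in the 4% libraries against 207 and 427 bp in the 20% libraries at Fancl. Over all 20%-only regions, both 4% libraries were below both 20% libraries at 247 of 363, and over all gene-end regions at 8.16%.

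The other lists gave 0 to 2 genes of either kind, to be read against 2.6% (4%-only) and 1.38% (20%-only) of all genes. Axon guidance genes had 0 4%-only and 2 20%-only regions among 33 genes, at the Eph receptor genes Epha7 and Epha8. Around the Epha8 region H3K27ac covered 0 bp in both 4% libraries, against 619 and 764 bp in the 20% libraries; around Epha7 it covered 526 and 557 bp in the 4% libraries, against 1065 and 1522 bp in the 20% libraries. Noradrenergic identity genes had 1 20%-only region among 26 genes, at the transcription factor gene Gata2, where the libraries overlapped (1153 and 1272 bp in the 4% libraries, 2295 and 767 bp in the 20% libraries). The Gata2 region was centred at +8002 bp from the nearest Gata2 start. Among 39 neuronal genes there was a 4%-only region at the sodium channel gene Scn3a and a 20%-only one at the neurofilament gene Nefl. Among 30 cell cycle genes there was 1 20%-only region, at Cdk2, with 438 and 458 bp in the 4% libraries against 706 and 532 bp in the 20% libraries. Among 25 immediate early genes there was 1 4%-only region, at the orphan nuclear receptor gene Nr4a1, with 1003 and 1062 bp in the 4% libraries against 228 and 809 bp in the 20% libraries. The Nr4a1 region held an end of the gene record, with its centre at -12932 bp from the nearest RefSeq start of Nr4a1. Among 26 mitochondrial respiration genes there was 1 of each kind, near Sdhc and Cox6a1. Among 14 immune genes the macrophage marker gene Cd68 had 1 4%-only region, with 2506 and 1788 bp in the 4% libraries against 1029 and 951 bp in the 20% libraries. That region was centred at -1727 bp from the start of Mpdu1. Nitric oxide and cGMP signalling, histone-modifying enzyme, housekeeping, glial, endothelial, and liver and muscle genes had 0 of either kind.

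Most of these regions were narrow and lay beside other H3K27ac. The median width was 421 bp for 4%-only and 392 bp for 20%-only regions, against 635 bp for all gene-end regions and 1302 bp for those present in all 4 libraries. The 14561 gene-end regions that were neither separated nor in all 4 libraries were narrower still, with a median of 310 bp. Deposited peak scores (−log10 values given by the authors) had medians of 7.44 and 7.60 in the 4% libraries at 4%-only regions. They were 6.40 and 7.10 in the 20% libraries at 20%-only regions. At regions present in all 4 libraries the medians ran from 26.2 to 27.7, and at the 14561 others from 6.68 to 7.44, so narrow, low-scoring peaks were not particular to the members. A peak of the 20% libraries lay within 1000 bp of 466 of the 697 4%-only regions (66.9%), at a median gap of 302 bp over all of them. A peak of the 4% libraries lay within 1000 bp of 277 of the 363 20%-only regions (76.3%), at a median gap of 237 bp. Of the 860 genes with a 4%-only region 637 also had a region present in all 4 libraries at an end, as did 319 of the 457 genes with a 20%-only region. Most of the regions thus lay close to H3K27ac called at the other oxygen level. A region present in all 4 libraries lay within 1000 bp of 50.9% of 4%-only and 58.4% of 20%-only regions. The same held for 53.7% of the 14561 gene-end regions that were neither separated nor in all 4 libraries. Nearness to shared H3K27ac was therefore not particular to the members. At a distance over 10000 bp from any peak of the other level there were 90 4%-only and 45 20%-only regions. A lncRNA gene end was the nearest for 28.3% of 4%-only and 28.7% of 20%-only regions, against 28.3% of all gene-end regions and 23.5% of those present in all 4 libraries, so the members were at the share of all gene-end regions.

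The directions differed in how often they lay upstream of the transcription start, a property that the rule did not use. Strand was known for the starts in the RefSeq promoter table, which excludes chromosome 18 here, and 427 4%-only and 233 20%-only regions lay within 2500 bp of such a start. The centre of the region was upstream of the nearest start for 242 of 427 4%-only regions (56.7%) and for 71 of 233 20%-only regions (30.5%). Among 11508 gene-end regions present in all 4 libraries it was upstream for 39.0%. Among the 8365 that were neither separated nor in all 4 libraries it was upstream for 44.5%, and over all 20533 for 41.5%. The median position was -260 bp for 4%-only, +227 bp for 20%-only and +277 bp for regions present in all 4 libraries. The interval from 500 to 250 bp upstream held 93 4%-only and 23 20%-only regions (21.8% and 9.87%). The 500 bp downstream of the start held 89 4%-only regions and 106 20%-only regions in its 2 bins of 250 bp. When peaks up to 1000 bp apart were merged first, the shares upstream were 48% of 100 4%-only regions and 30% of 60 20%-only regions. With 1 library left out at a time the share upstream ran from 47.0% to 54.1% for 4%-only and from 31.5% to 40.4% for 20%-only regions. Regions share starts and libraries, so no p is given.

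**Figure D2:**
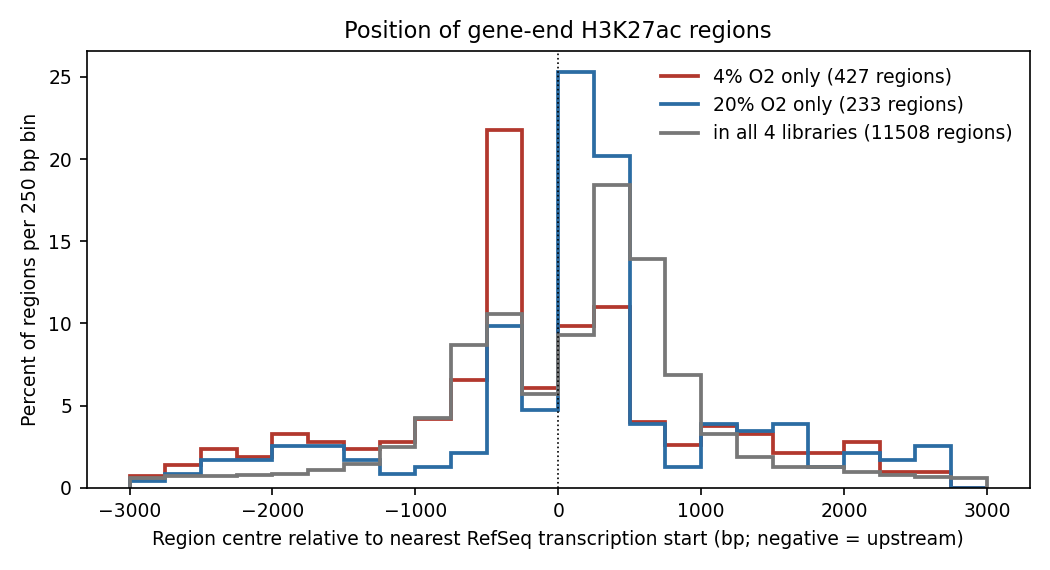
Percent of gene-end H3K27ac regions per 250 bp bin by the position of the region's centre relative to the nearest RefSeq transcription start (bp, negative upstream), for 4%-only, 20%-only and shared regions. The 4%-only regions peak in the bin from 500 to 250 bp upstream (21.8%), and the 20%-only regions in the first bin downstream (25.3%).

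The promoters they overlapped differed in ETS letters and not visibly in HIF letters. The 4%-only regions overlapped 207 promoter windows and the 20%-only regions 117, some of which overlap one another as alternative starts or opposed genes. CCGGAAG, on either strand, was in 32 of 207 windows at 4%-only regions (15.5%) and in 45 of 117 at 20%-only regions (38.5%). It was in 18.9% of 9681 windows at regions present in all 4 libraries and in 9.0% of all 31396 windows. ACGTG was in 61 of 207 windows at 4%-only regions (29.5%) and in 37 of 117 at 20%-only regions (31.6%), against 26.7% at regions present in all 4 libraries and 19.7% of all windows. GCGTG was in 53.1% of windows at 4%-only and 47.0% at 20%-only regions, against 52.1% at regions present in all 4 libraries and 32.8% of all windows. Counted by region, 28 of 187 4%-only regions at a promoter (15.0%) and 37 of 97 20%-only regions (38.1%) had CCGGAAG in an overlapped window. The letters lay within the bounds of the region itself for 4 of the 187 and 1 of the 97, so that in most of these windows they lay outside the separated stretch.

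Of the other letters searched, the GC box GGGCGG was in 64.3% of windows at 4%-only and 65.0% at 20%-only regions, against 63.4% at regions present in all 4 libraries and 36% of all windows. The AP-1 site TGANTCA was in 8.21% of windows at 4%-only and 3.42% at 20%-only regions, against 4.85% at regions present in all 4 libraries and 7.84% of all windows. The cAMP response element TGACGTCA was in 3.86% at 4%-only and 6.84% at 20%-only regions, against 3.65% at regions present in all 4 libraries and 1.83% of all windows. The E-box CACGTG, which contains ACGTG, was in 12.1% at 4%-only and 15.4% at 20%-only regions, against 10.1% at regions present in all 4 libraries and 7.14% of all windows. The windows had a median of 17 CpG dinucleotides at 4%-only and 21 at 20%-only regions, against 22 at regions present in all 4 libraries and 7 over all windows. A match of letters is a description of the sequence and shows no bound factor.

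**Figure D3:**
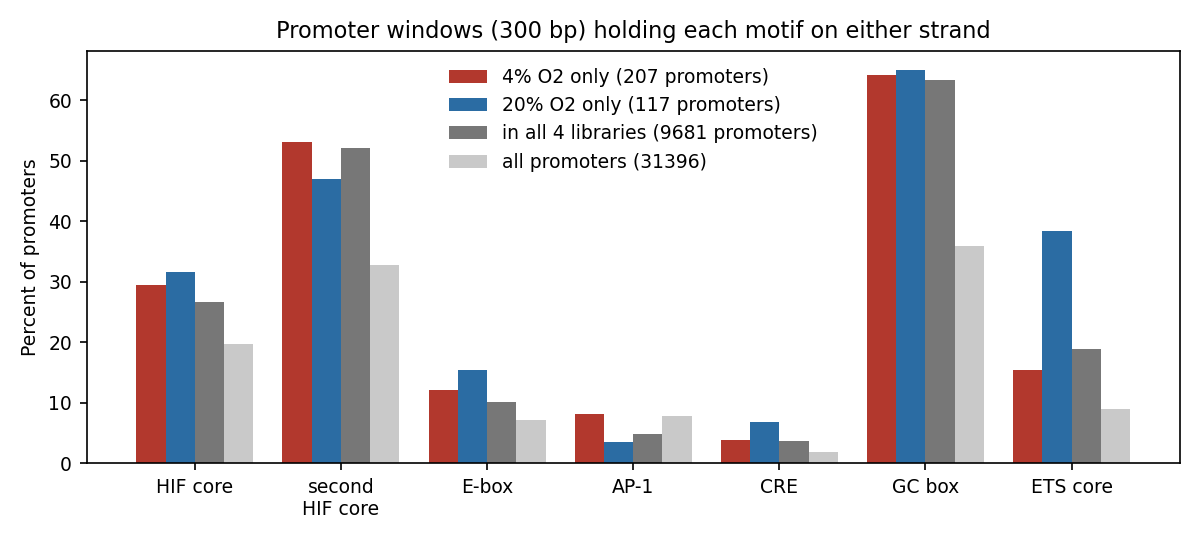
Percent of RefSeq promoter windows holding each motif on either strand, for windows overlapped by 4%-only, 20%-only and shared regions and for all windows. The bars for the ETS core stand at 15.5% for 4%-only and 38.5% for 20%-only regions, while those for the first HIF core stand at 29.5% and 31.6%.

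H3K4me3 was measured in libraries that the rule did not use, and its differences at the members were small. H3K4me3 peaks overlapped 60.7% and 63.4% of the 4%-only regions in the 4% libraries, and 60.7% and 59.0% in the 20% libraries. The difference in means was 2.22 percentage points (62.1% ± 1.93 at 4% and 59.8% ± 1.22 at 20% oxygen, SD, n = 2 each; exact permutation p = 0.667, two-sided). It was 0 in replicate 1 and 4.45 in replicate 2, and ran from 0.861 without 4% replicate 2 to 3.59 without 4% replicate 1. They overlapped 57.0% and 58.7% of the 20%-only regions in the 4% libraries, and 61.2% and 60.1% in the 20% libraries. The difference was -2.75 points (exact permutation p = 0.33, two-sided, the smallest that 2 against 2 libraries can give). Set against each other within a library, the share at 4%-only minus that at 20%-only regions was 3.66 and 4.74 points in the 4% libraries, against -0.47 and -1.09 in the 20% libraries. The libraries did not overlap in this contrast (difference 4.98 points; 4.13 in replicate 1 and 5.83 in replicate 2, where oxygen levels shared a flow cell; exact permutation p = 0.33). Over all gene-end regions H3K4me3 overlap differed by -0.32 points.

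H3K4me3 itself separated by oxygen, by the same rule of both libraries against neither, at 6 of 697 4%-only regions (0.861%) and 0 of 363 20%-only regions in the 4% direction, against 0.2% of all gene-end regions. These 6 included the regions at Gm51654, Apol9a, Gm39382, Vill and Plekho2. At Apol9a, an apolipoprotein L gene, H3K4me3 covered 724 and 464 bp of the region in the 4% libraries, and 0 bp in both 20% libraries. At Vill, a villin-like gene, it covered 725 and 233 bp in the 4% libraries, and 0 bp in both 20% libraries. In the 20% direction H3K4me3 separated at 1 region of each kind, against 0.219% of all gene-end regions, and the 20%-only one was at Gdf11, a growth differentiation factor gene.

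H3K4me1, found mainly at enhancers and the flanks of promoters, had a lower mean overlap at 4% oxygen at both kinds of region. It overlapped 36% and 24.2% of the 4%-only regions in the 4% libraries, against 59.3% and 34.3% in the 20% libraries (difference -16.6 points, exact permutation p = 0.667; -4.16 without 20% replicate 1 and -29.1 without 20% replicate 2). It overlapped 25.3% of the 20%-only regions in both 4% libraries, against 53.4% and 39.1% in the 20% libraries (difference -20.9 points, exact permutation p = 0.33). At regions present in all 4 libraries it overlapped 40.4% and 34.2% in the 4% libraries, against 76.6% and 50.7% in the 20% libraries. The H3K4me1 peaks themselves covered 60.4 and 63.2 Mb of chromosomes 1 to 19 in the 4% libraries, against 104.6 and 81.0 Mb in the 20% libraries. With equal numbers of top-scoring H3K4me1 peaks the differences were -11.6 points at 4%-only and -17.6 points at 20%-only regions. With all peaks, the difference over all gene-end regions was -22.5 points. At 4%-only regions the libraries of the oxygen levels overlapped, and the difference was negative in both replicates (-23.2 and -10.0 points), in each of which the oxygen levels shared a flow cell. H3K4me1 separated in the 20% direction at 29 of 697 4%-only regions (4.16%) and 31 of 363 20%-only regions (8.54%), against 8.5% of all gene-end regions. The 20%-only regions concerned included those at Nhp2, Jagn1, Abca7, Myl9 and Notch1. In the 4% direction it separated at 3 4%-only regions, those at Gm41553, Gm41914 and Ankrd37, and at 1 20%-only region, against 0.2% of all gene-end regions.

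H3K27me3, the Polycomb mark, overlapped few of the regions. The shares at 4%-only regions were 2.01% and 0.861% in the 4% libraries, against 0.717% and 0.861% in the 20% libraries. At 20%-only regions they were 0.826% in both 4% libraries, against 0.275% in both 20% libraries. These shares stand for 14, 6, 5 and 6 of 697 regions and for 3, 3, 1 and 1 of 363 regions (exact permutation p = 0.667 and 0.33). H3K27me3 separated in the 4% direction at 3 of 697 4%-only regions (Mon1a, Hpse and Supt4a) and 2 of 363 20%-only regions, against 0.133% of all gene-end regions. In the 20% direction it separated at 0 regions of either kind, against 0.0159% of all gene-end regions.

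H3K36me3 islands, which mark transcribed gene bodies, overlapped 17.9% and 15.1% of the 4%-only regions in the 4% libraries, against 14.2% and 15.1% in the 20% libraries (exact permutation p = 0.667). They overlapped 24.5% and 22.6% of the 20%-only regions in the 4% libraries, against 22.0% and 26.2% in the 20% libraries (exact permutation p = 1). Within every library the share was higher at 20%-only than at 4%-only regions. Regions present in all 4 libraries, which are wider and so more easily touched, had 31% to 37.2%. Over all gene-end regions it was 32.8% and 29.8% in the 4% libraries and 28.4% and 29.9% in the 20% libraries, above both kinds of member. By mean covered percent of the region, 20%-only regions had 20.7% and 18.6% in the 4% libraries and 19.1% and 21.5% in the 20% libraries. Regions present in all 4 libraries had less, with 19.9% and 15.2% in the 4% libraries and 13.7% and 14.9% in the 20% libraries. The 14561 gene-end regions that were neither separated nor in all 4 libraries had more. They had 27.3% and 25.2% in the 4% libraries and 24.5% and 26.5% in the 20% libraries, so this coverage was not particular to the 20%-only regions. H3K36me3 separated in the 4% direction at 6 of 697 4%-only regions, among them those at Cables1, Hr, Pcdha8, Sdc3 and LOC108169175, and at 5 of 363 20%-only regions, against 1.33% of all gene-end regions. In the 20% direction it separated at 3 4%-only regions and at 5 20%-only regions, which were at Gtf2h4, Trp53cor1, Gm13782 (with 2 regions) and Picalm, against 0.52% of all gene-end regions.

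**Figure D4:**
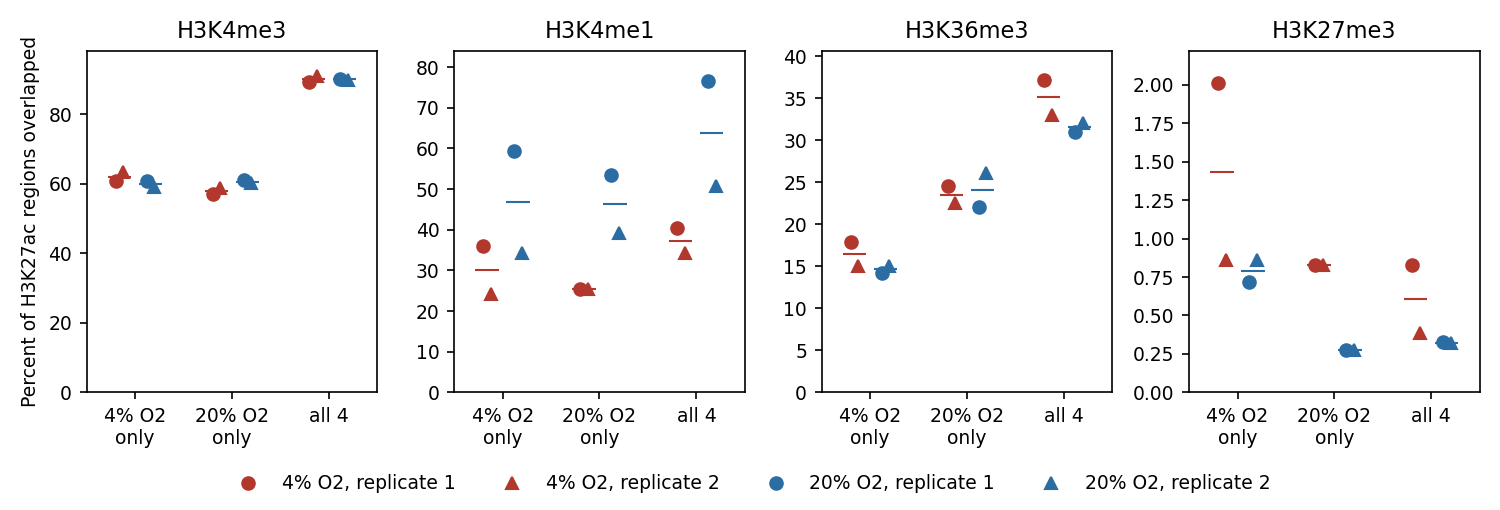
Percent of H3K27ac regions overlapped by at least 1 bp by peaks or islands of the other marks, 1 point per library with the mean of the 2 libraries as a line (4% oxygen left of 20% oxygen), for 4%-only, 20%-only and shared regions. H3K4me1 overlap is lower in the 4% libraries at 20%-only and shared regions, and H3K4me3 overlap of the 4%-only and 20%-only regions lies between 57.0% and 63.4% in every library.

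Read numbers in H3K36me3 islands came from libraries that the rule did not use. Over 10507 merged islands present in all 4 libraries, edgeR's quasi-likelihood test called 0 islands (0%) at a Benjamini-Hochberg adjusted p under 0.05, and 1018 (9.69%) had an unadjusted p under 0.05. DESeq2 called 6 islands, all higher at 4% oxygen, and 677 had an unadjusted p under 0.05. For these reads, genes with a 4%-only or 20%-only region are those nearest to one, 665 and 347 genes. Their linked island was tested in 366 and 195 cases. The median log2 ratio of 4% to 20% was 0.05 at genes with a 4%-only region and -0.03 at genes with a 20%-only region, against 0.04 over all islands. Within replicates 1 and 2 the medians were 0.04 and 0.03 at genes with a 4%-only region and -0.05 and -0.06 at genes with a 20%-only region. Without the offset for covered length the medians were 0.02 and -0.09, against -0.0025 over all islands, and without 4% replicate 2 they were 0.06 and -0.0069. Density was higher at 4% oxygen in both replicates for 144 of the 366 genes (39.3%) and lower in both for 94 (25.7%). For genes with a 20%-only region these were 50 of 195 (25.6%) and 86 (44.1%), and over all islands 38.9% and 27.2%. At the 7539 tested genes nearest to a region present in all 4 libraries they were 35.5% and 28.1%. Genes can share an island, as Dusp16 and Gm36328 did, and Gm36328 was counted in both directions. An island can thus count more than once among genes, unlike in the shares over all islands. The shares at genes with a 4%-only region were thus near those over all islands, and the share lower in both replicates was above it at genes with a 20%-only region; this difference was not tested. An unadjusted p under 0.05 was found at 33 of the 366 genes (9.02%) and 26 of the 195 (13.3%), against 7.65% of the 7539. Of those 26 genes, 19 were lower and 7 higher at 4% oxygen. Of the 33 genes, 10 were lower and 23 higher. Over all islands, 318 of the 1018 were lower and 700 higher, which is near the balance at the 33 genes.

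Pdk1 had the lowest p of all these genes. Its island, at chr2:71874201-71905400, had a density of 3.63 and 3.89 (reads per 1000 bp of covered length and 1000000 scaled island reads) in the 4% libraries, against 2.05 and 2.59 in the 20% libraries, a log2 ratio of 0.70 ± 0.13 (SE; edgeR adjusted p = 0.430). Both 4% libraries were above both 20% libraries, and DESeq2 called Pdk1 (log2 ratio 0.71 ± 0.16, adjusted p = 0.0213). Hk2 had 4.82 and 4.43 in the 4% libraries, against 3.08 and 3.66 in the 20% libraries (log2 ratio 0.46 ± 0.12, edgeR adjusted p = 0.430). Narf had 3.21 and 3.59 in the 4% libraries, against 2.35 and 2.93 in the 20% libraries (log2 ratio 0.37 ± 0.13). Pygl had 3.22 and 2.93 in the 4% libraries, against 1.92 and 2.68 in the 20% libraries (log2 ratio 0.43 ± 0.16). With all 4 libraries and no replicate block, none of Hk2, Narf and Pygl passed the adjusted threshold in edgeR or DESeq2. Their libraries, like those of Pdk1, did not overlap, but the share of all islands without overlap was not counted. The looser pattern of a higher density in both replicates held at 38.9% of all islands. Without 20% replicate 2, edgeR called Pdk1 (adjusted p = 0.00303) and Pygl (adjusted p = 0.0466). Stc2 and Vhl had log2 ratios of 0.20 ± 0.15 and 0.13 ± 0.13, with adjusted p of 0.668 and 0.772 in edgeR. In DESeq2, Ankrd37 had a log2 ratio of 0.15 ± 0.15 (adjusted p = 0.929). Ccdc58, the gene nearest to the Fam162a region, had 0.30 ± 0.15 (DESeq2 adjusted p = 0.705). Adm and Hif3a had no tested island, so these reads say nothing about them.

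Of the genes with a top-ranked 20%-only region, Thg1l had an H3K36me3 density of 2.61 and 2.67 in the 4% libraries, against 3.49 and 3.61 in the 20% libraries (log2 ratio -0.43 ± 0.12, edgeR adjusted p = 0.430). Wdr70 had 3.64 and 4.01 in the 4% libraries, against 4.77 and 4.69 in the 20% libraries (log2 ratio -0.31 ± 0.12). Gemin5 had 4.12 and 4.16 in the 4% libraries, against 5.24 and 4.83 in the 20% libraries (log2 ratio -0.28 ± 0.11). Fanca had 2.23 and 2.32 in the 4% libraries, against 2.76 and 2.82 in the 20% libraries (log2 ratio -0.29 ± 0.11). In these 4 genes both 4% libraries were below both 20% libraries, a pattern whose share over all islands was not counted. The looser pattern of a lower density in both replicates held at 27.2% of all islands. None of the 4 genes passed the adjusted threshold in this fit without a replicate block. Pibf1, with the highest-ranked 20%-only region, had a log2 ratio of -0.04 ± 0.13, and Nhp2 one of -0.06 ± 0.11.

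The balance of the directions varied between chromosomes. The 4%-only regions were 65.8% of the 1060, and outnumbered the 20%-only regions on 17 of the 19 chromosomes. On chromosome 9 there were 64 4%-only and 14 20%-only regions, 3.70% and 0.810% of its 1728 gene-end regions. On chromosome 8 the order was turned, with 24 4%-only and 38 20%-only regions, 1.34% and 2.12% of 1790. Chromosome 15 had 18 and 19. Among regions farther than 2500 bp from a gene end, 4%-only regions were 61.7% of the separated ones on all chromosomes, 63.4% on chromosome 9 and 53.9% on chromosome 8. The share of all H3K36me3 island reads on chromosome 8 was 0.993 and 0.966 times as large in the 4% libraries as in the 20% libraries (replicates 1 and 2), and on chromosome 9 1.01 and 1.05 times.

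**Figure D5:**
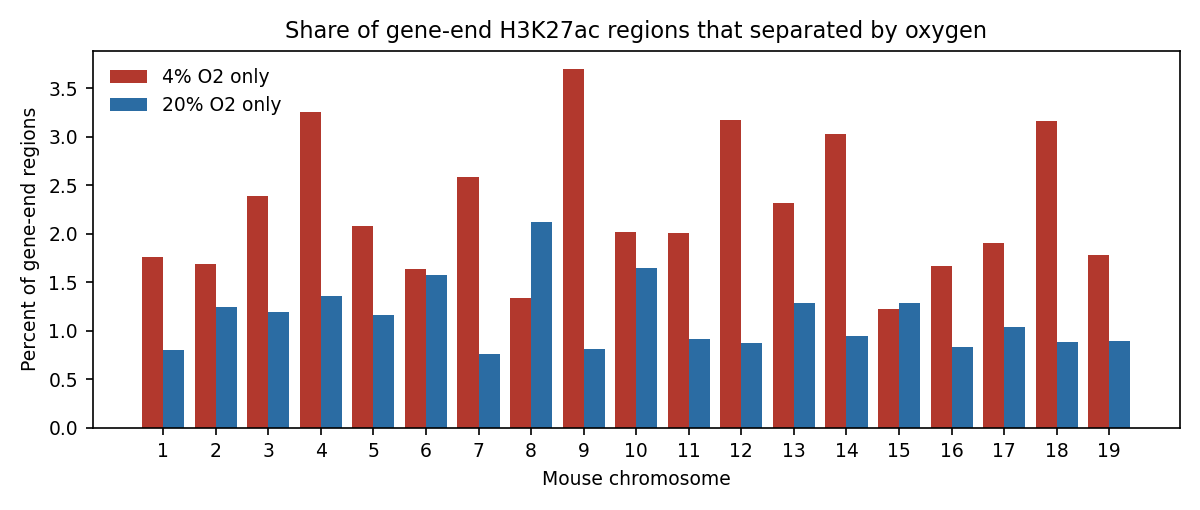
Percent of the gene-end H3K27ac regions of each chromosome that were 4%-only or 20%-only. The 4%-only share is 3.70% on chromosome 9, and the 20%-only share is above the 4%-only share on chromosomes 8 and 15.

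The thresholds of the rule cut through a continuum. The last 500 bp inside the distance limit held 61 4%-only and 36 20%-only regions, and the first 500 bp outside it 70 and 34. A further 1613 gene-end regions had peaks in both 4% libraries and 1 of the 20% libraries, and 1246 in both 20% libraries and 1 of the 4% libraries, more in each case than the members themselves.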

How the data were processed

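Peaks and islands were called by the authors per library. BWA, Picard, MACS2 and SICER and the build mm10 are named, per the submitters' processing notes; versions and parameters are not given in the sources used here. The deposited H3K27ac, H3K4me3 and H3K4me1 lists hold MACS2 peaks with a score, a −log10 value taken as −log10 q from its layout, which served to describe, rank or filter peaks within a list. The deposited H3K36me3 and H3K27me3 lists hold SICER islands with an unlabelled column of whole numbers, taken as read counts per island; counts in H3K36me3 islands summed to 13350093 to 25048785 per library. The interval lists of the replicate 2 libraries are filed with replicate 1, and their names and scores matched those filed with replicate 2 for 100% of entries.

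Gene ends and promoters came from RefSeq tables for GRCm38.p6, with 27025 genes in the promoter table; the gene table has no strand. Shares of regions overlapped by at least 1 bp were compared by exact permutation over libraries. H3K36me3 island counts were summed per merged island, with log covered length as offset and TMM scaling, in edgeR 4.0.16 (quasi-likelihood, Benjamini-Hochberg), tested on simulated data, with DESeq2 1.42.0 as an alternative. The gene nearest to each region was linked to the merged island that overlapped most of it, and was left out where that island was not tested. Density is reads per 1000 bp of covered length and 1000000 TMM-scaled island reads. Named genes are the 12 regions per direction ranked by the lower of the 2 within-list score percentiles, all regions at genes of the 15 lists, and up to 5 regions per mark and direction where another mark separated the same way; some of these are given as counts only, and sequences were picked after their values were seen. The members and lists were chosen with earlier results of these data known. Inputs and chromosomes X and Y were not used in the main results.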

Additional observations from a re-analysis of the deposited data

How the results depend on the processing

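Requiring peaks over at least 50% of a region gave 1225 4%-only regions, merging peaks within 1000 bp gave 215 4%-only and 95 20%-only regions, and a window of 1000 bp gave 460 4%-only regions. With 1 library left out there were 1399 to 5895 4%-only and 617 to 2871 20%-only regions, by construction, since 1 peak list then stands for an oxygen level. A minimum score of 5, equal peak numbers, a 5000 bp window, protein-coding genes alone, or adding X and Y kept both counts within 1.5 times, and 4%-only regions outnumbered 20%-only ones under each of these. Without 20% replicate 1 the order of the counts turned (1399 4%-only, 2871 20%-only). A 20%-only region then needed a peak in a single library and a 4%-only region in both, so these counts are not on the same rule. Leaving out 4% replicate 2 or 20% replicate 2 turned the H3K36me3 overlap at 20%-only regions, which ran from -2.62 to 1.52 points with 1 library left out. The contrast of the directions for H3K4me3 kept its sign under every alternative run (4.44 to 5.52 points with 1 library left out, 1.99 with regions widened by 1000 bp); for H3K4me1 it ran from -1.59 to 10.2 points, turning without 4% replicate 1 (-1.59) and without 20% replicate 2 (-1.03). For H3K27me3 it turned with 50% coverage (-0.19), with regions widened by 1000 bp (-1.58) and without 4% replicate 1 (-0.48), and ran from -0.48 to 0.67 with 1 library left out. The cause was not tested. These contrasts and the shares upstream of the start were added after seeing the data.

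For H3K36me3 reads, edgeR called 0 to 31 islands with 1 library left out and DESeq2 called 6. Without 20% replicate 2, Pdk1 and Pygl were among the 31 called. The labels do not say that equal replicate numbers share a culture, and with 2 pairs the check of pairing (correlation 0.50) cannot decide it. A fit with the replicate number as a block called 1245 of 10507 islands (11.8%), 856 higher and 389 lower at 4% oxygen. At the 366 tested genes nearest to a 4%-only region it called 35 higher and 10 lower. At the 195 nearest to a 20%-only region it called 10 higher and 19 lower. Pdk1, Hk2, Pygl and Narf were among the higher and Thg1l, Wdr70, Gemin5 and Fanca among the lower. For the overlap shares, a block by replicate number gives the same mean differences by arithmetic, so it is no check of them. H3K27ac peak lists give no depth, so absence of a peak is not absence of the mark.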

Other observations

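Regions of both directions lay at the ends of 12 genes. Ngfr, which encodes the p75 neurotrophin receptor, had a 4%-only region at chr11:95570085-95570458 and 20%-only regions at chr11:95588783-95589452 and chr11:95589505-95589972, at opposite ends of the gene. Thap11 had a 4%-only region nearest to its neighbour Cenpt and a 20%-only region nearest to Nutf2. The water channel gene Aqp6 had 3 20%-only regions within 2500 bp of its ends, of 1055, 392 and 676 bp. In all, 48 genes had 2 or more 4%-only regions and 18 had 2 or more 20%-only regions. These genes were singled out after their values were seen.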
